A study of Mus musculus with 12 samples.

Results

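Transcript levels of Stat5-null mouse embryonic fibroblasts were set against those of wild-type cells. Mouse embryonic fibroblasts (MEFs) are connective tissue cells grown from embryos. All cells were labelled C57BL/6. The 4 arrays of Stat5-null cells (KO) were 2 of untreated cells and 2 of cells given growth hormone for 120 minutes, and the 4 arrays of wild-type cells (WT) were divided in the same way. These 8 of the 12 arrays of the series were chosen by genotype, and the hormone entered the comparison as a block. The other 4 arrays, of KO cells that received a STAT5A vector by retroviral infection (S5), were used for levels alone. Both arrays of each group are described by the submitters as biological duplicates, and no label names the embryos, the culture or its age. P-values therefore measure the spread between these arrays. Each genotype came as its own cells, so that the loss of Stat5 and the origin of the cells cannot be told apart. No label names a KO group with an empty vector.

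STAT5A and STAT5B are related transcription factors. Binding of growth hormone to its receptor activates the kinase JAK2, which phosphorylates STAT5, and STAT5 dimers then bind DNA and change the transcription of target genes such as Socs2, Cish and Igf1. Fibroblasts from embryos are a mixed culture that keeps the positional memory of the body region it came from, carried in part by the Hox genes, and that can hold other cells of the embryo, macrophages among them.

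Values were deposited log2 levels, 1 probe set standing for each of 18193 genes. The median of an array lay between 2.86 and 3.02, and 44.9 to 45.8% of probe sets lay at 4 or above. Below 4 the values of different genes pile up and differ little, so in a gene with arrays under 4 these values were set to 4 and the fold change is given as at least that size. The log2 difference of 3′ minus 5′ control probe sets, a sign of RNA and label length, was 1.04 ± 0.08 (SD, n = 4) in KO and 1.02 ± 0.15 in WT for Gapdh. For Actb it was 2.96 ± 0.17 and 2.88 ± 0.25. The number of arrays limits the precision, and SDs over the 4 arrays of a genotype include the effect of the hormone.

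Both deleted genes matched the labels. Stat5a read 2.41, 2.47, 2.43 and 2.38 on the KO arrays and 11.51, 11.45, 12.11 and 12.39 on the WT arrays (in each such list the 2 untreated arrays come first, then the 2 with growth hormone). All KO arrays lay near the lower end of the scale, at least 233-fold below WT (adjusted p = 1.19e-06). Stat5b read between 1.93 and 2.01 in KO and between 8.98 and 9.39 in WT, at least 36.4-fold lower (adjusted p = 1.48e-07). A second Stat5a probe set read 2.23 ± 0.03 in KO, 2.30 ± 0.07 in WT and 9.48 ± 0.46 in S5 (SD, n = 4 each), while the first stood at 2.34 to 2.42 in S5. The positions of these probes in the gene were not analysed here. On the chosen probe sets the receptor and its kinase did not pass. Ghr, the growth hormone receptor, differed by 0.06 (SE 0.03, adjusted p = 0.188), although another Ghr probe set was 0.49 higher in KO (adjusted p = 0.00183 among all probe sets). A further Ghr probe set was 0.47 higher in KO and did not pass (adjusted p = 0.0847 among all probe sets). Jak2 differed by -0.09 (SE 0.06, adjusted p = 0.345). Ghr also passed, higher in KO, after median centring (adjusted p = 0.0455).

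Of the 18193 genes 33.8% differed between KO and WT (6146 genes, limma's moderated test with Benjamini-Hochberg adjustment at 0.05). Higher in KO were 3388 genes (18.6%) and lower 2758 (15.2%), and the median difference over all genes was 0.0038. Large differences lay more on the lower side. At least 2-fold were 924 rises (5.08%) and 1320 falls (7.26%), and at least 4-fold 218 rises and 718 falls. Of the 1320 falls, 420 were of genes under 4 on every KO array, and 288 of these were under 4 on every S5 array too. Of the 924 rises, 121 were of genes under 4 on every WT array. The 4 KO arrays lay wholly above or wholly below the 4 WT arrays in 32.3% of all genes (17.3% above, 14.9% below). Taken by hormone state, 22.9% of genes were called without and 26.2% with growth hormone and 3379 of the 6146 pooled calls passed in both. In the untreated arrays alone the higher calls numbered 2042, fewer than in the pooled comparison by over 1.5 times.

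**Figure D1:**
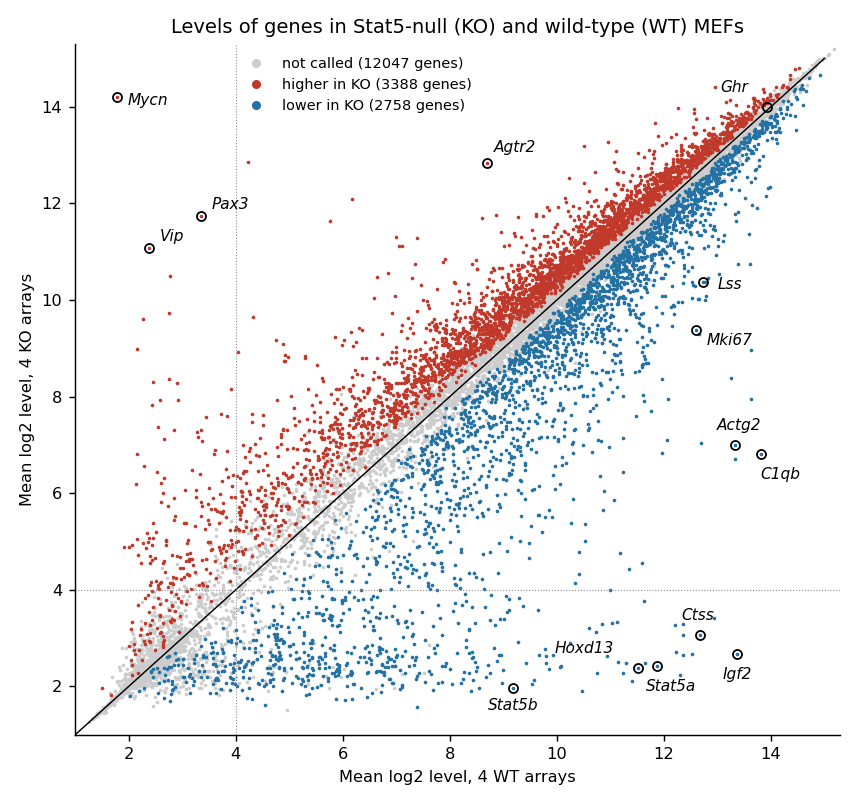
Mean log2 level of each gene over the 4 KO arrays (vertical axis) against the mean over the 4 WT arrays (horizontal axis), with 3388 genes higher in KO in red, 2758 lower in blue, the line of equal levels, and dotted lines at the bound of 4. Blue points run along the bottom, genes at over 8 in WT and under 4 in KO such as Igf2, Ctss, Hoxd13 and both Stat5 genes, while few genes rise from the left edge, with Mycn, Pax3 and Vip farthest up.

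The largest rise was of Mycn. Mycn, a MYC-family transcription factor of embryonic growth, read 14.19, 14.18, 14.23 and 14.17 in KO and 1.78, 1.78, 1.79 and 1.76 in WT, at least 1171-fold higher (SE of the log2 difference 0.03, adjusted p = 3.43e-11). The KO and WT arrays lay at opposite ends of the scale, and the S5 arrays, at 14.34 to 14.41, stood with KO. Only this 1 of 3 Mycn probe sets showed the difference: the other 2 had means of 2.65 and 2.05 in KO and 2.45 and 2.08 in WT. Pax3, a paired-box factor of the neural tube, neural crest and muscle precursors, read 11.48, 12.03, 11.62 and 11.81 in KO and 3.49, 4.37, 2.54 and 3.01 in WT, at least 200-fold higher (adjusted p = 1.55e-05). Here all 3 probe sets passed in the same direction, and the S5 arrays lay at 2.37 to 2.43, below both genotypes. Vip, a neuropeptide, read 10.93, 11.16, 11.26 and 10.95 in KO and 2.34 to 2.43 in WT, at least 135-fold higher (adjusted p = 8.19e-08), and Adcyap1r1, a receptor for the related peptide PACAP, was at least 52.9-fold higher. Vip stood at 2.23 to 2.25 and Adcyap1r1 at 2.02 to 2.08 in S5, so that neither level was found in the cells made from KO.

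Other large rises were of Dsp, the desmosome protein desmoplakin (60.3-fold), Lhx8, a LIM-homeobox factor (58.4-fold), Dkk2, a secreted Wnt modulator (at least 38.7-fold), Lrrn1, a neuronal leucine-rich repeat protein (at least 25-fold), and P2ry14, a receptor for UDP-sugars (21.4-fold). Agtr2, the angiotensin II receptor type 2 of fetal tissues, read 12.70 to 12.94 in KO and 7.67 to 9.65 in WT (17.7-fold). The tight junction gene Cldn1 was at least 16.1-fold higher, the potassium channel gene Kcnd2 18.6-fold, and the glycogen regulator Ppp1r3c 19.8-fold. Of the 20 largest rises 13 genes had several probe sets. In 9 of these 13, Mycn, Cldn1 and Lrrn1 among them, at least 1 probe set was under 4 on all 8 arrays. With such probe sets left aside, 8 genes had several, and in 6 of these 8 all passed in the same direction. The exceptions were Adcyap1r1 and Xaf1. Xaf1, an interferon-inducible apoptosis gene, stood at 8.27 ± 0.27 in KO and 2.90 ± 0.10 in WT on one probe set (SD, n = 4) and at 3.28 ± 0.50 and 7.86 ± 0.52 on another, so no direction can be given for the gene.

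**Figure D2:**
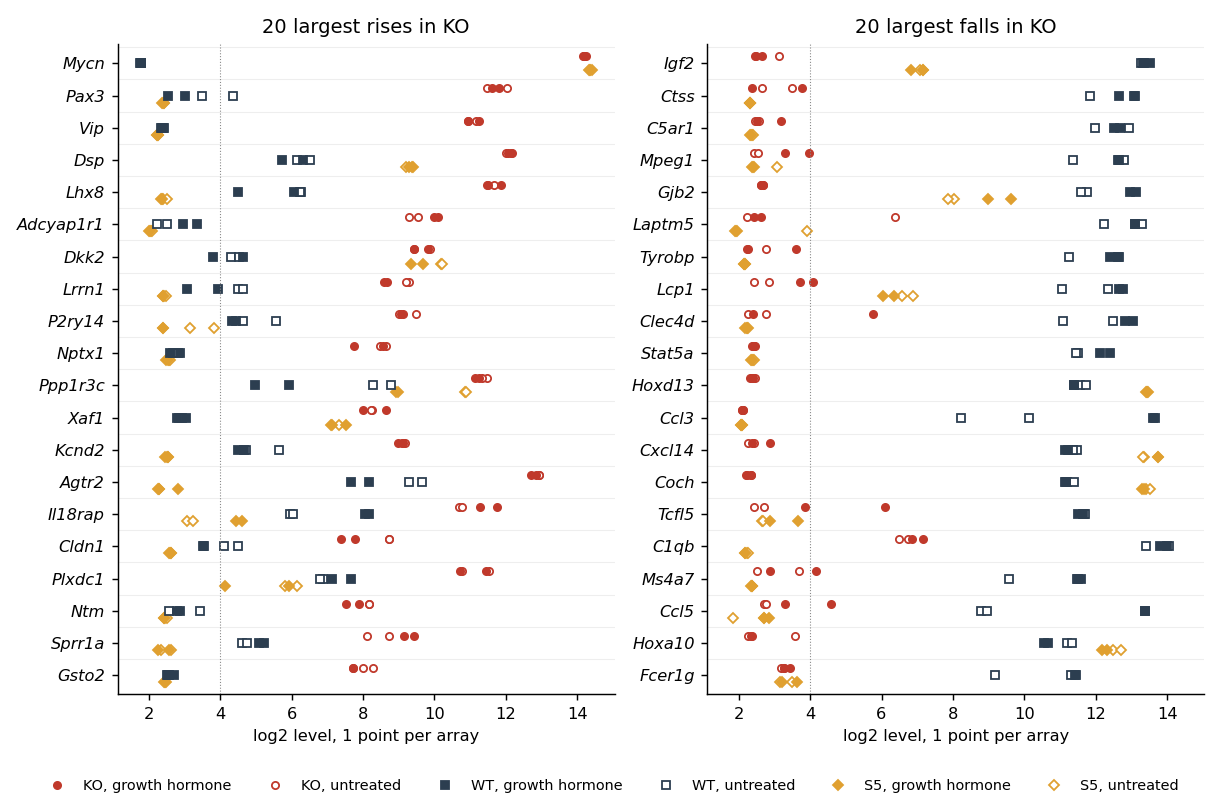
Log2 level of the 20 named genes that rose most and the 20 that fell most, 1 point per array (KO circles, WT squares, S5 diamonds; open untreated, filled growth hormone), with a dotted line at 4. KO and WT points do not overlap for any of the 40 genes, as the rule that chose them required, and S5 points lie with KO for some (Mycn, Ctss) and with or beyond WT for others (Hoxd13, Coch, Cxcl14).

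The falls were led by Igf2 and by genes of macrophages. Igf2, the imprinted fetal growth factor, read 3.12, 2.49, 2.47 and 2.65 in KO and 13.26, 13.35, 13.31 and 13.52 in WT, at least 657-fold lower (SE 0.16, adjusted p = 5.65e-07). The S5 arrays lay between, at 6.83 to 7.16. Ctss, the lysosomal protease cathepsin S of antigen-presenting cells, read 2.66, 3.50, 2.37 and 3.76 in KO and 11.84, 13.08, 13.10 and 12.66 in WT, at least 408-fold lower (adjusted p = 2.72e-05). C5ar1, the receptor for complement fragment C5a, was at least 368-fold lower, Mpeg1, the pore-forming perforin-2 of macrophages, at least 329-fold, and Tyrobp, the signalling adaptor DAP12, at least 300-fold. Laptm5, a lysosomal protein of blood cells, stood at 12.22 to 13.30 in WT and at 2.24, 2.42 and 2.62 on 3 KO arrays, but at 6.38 on the remaining untreated KO array. Its log2 difference was -9.51 with all arrays, -10.55 without that array and -8.90 without the other untreated KO array.

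Of 32 macrophage and leukocyte genes 28 were lower in KO (87.5%, against 15.2% of all genes) and none higher, with a median difference of -5.76 against 0.0038 over all genes. C1qb, a chain of complement C1q made by tissue macrophages, read 6.74, 6.50, 7.15 and 6.86 in KO and 13.41, 14.04, 13.80 and 13.98 in WT (128-fold lower, adjusted p = 2.61e-06). Csf1r, the receptor that macrophages need to survive, read 6.87, 8.60, 8.33 and 8.03 in KO and 12.99 to 13.89 in WT (51.1-fold lower). Adgre1, a surface receptor that defines mouse macrophages, read 2.34, 2.41, 2.63 and 2.34 in KO and 8.39, 10.29, 10.97 and 10.69 in WT. Ptprc, the pan-leukocyte antigen, stood at 2.48 ± 0.05 in KO and 9.80 ± 0.94 in WT (SD, n = 4). Neither gene overlapped between the genotypes. The mannose receptor Mrc1 was at least 57.8-fold lower. Itgam, a myeloid integrin, was under 4 on every array of both genotypes, and Spi1, Trem2 and Cx3cr1 did not pass. Without the first untreated WT array Trem2 and Cx3cr1 did (adjusted p = 0.00249 and 0.0203), and Cx3cr1 did without the second as well (adjusted p = 0.0451). The mean over the 32 genes was 3.16 to 3.39 on the KO arrays and 7.46, 9.26, 9.27 and 9.34 on the WT arrays, and 2.77 to 2.93 on the S5 arrays. The first untreated WT array was thus the lowest of the 4. In RNA of a whole culture, fewer macrophages and less RNA per macrophage cannot be told apart. Leaving out any 1 array gave 26 to 30 lower members.

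A smaller share of the markers of other cell types passed. None of 10 lymphocyte genes passed, and all 10, Cd3e, Cd79a and Ms4a1 among them, were under 4 on all 8 arrays. Of 12 erythroid, platelet and mast cell genes 2 were lower and 1 higher (16.7% and 8.33%, against 15.2% and 18.6% of all genes). The lower ones were the platelet chemokines Pf4 (at least 97.5-fold) and Ppbp (at least 67-fold). The higher one, Itga2b (named after its values were seen), lay under 4 in both genotypes. Epithelial, endothelial and skeletal muscle genes were mostly under 4 in both genotypes, in 10 of 12, 11 of 14 and 11 of 12 genes, with Epcam, Kdr and Myod1 among them. The skeletal muscle gene Acta1 was at least 17.6-fold lower in KO (adjusted p = 2.52e-05), and no other gene of that list passed. Among the endothelial genes, Tek fell by at least 3.49-fold (adjusted p = 0.0074) and Eng by 2.83-fold (adjusted p = 0.00371). Krt18, a keratin of simple epithelia, was 2.48-fold higher in KO, a call that was lost in the untreated arrays alone (adjusted p = 0.067) and in the treated arrays alone (adjusted p = 0.108). The label of the cells held in both genotypes: the mean over 20 fibroblast genes was 12.56 to 12.63 in KO and 12.77 to 12.87 in WT. Of these, 5 were higher and 5 lower (25% each, against 18.6% and 15.2% of all genes), with Dpt, the matrix protein dermatopontin, 3.28-fold higher, Fap, the fibroblast activation protein, 4.44-fold lower, and Lum, the proteoglycan lumican, at least 8.73-fold lower.

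Genes of the contractile apparatus of smooth muscle were lower in KO, in 12 of 15 (80%, against 15.2% of all genes), with a median of -1.38. Myh11, smooth muscle myosin heavy chain, read 2.56, 2.65, 2.73 and 2.63 in KO and 9.87, 9.52, 9.61 and 9.70 in WT, at least 51.1-fold lower (SE 0.08, adjusted p = 1.83e-07). No KO array came near a WT array. Actg2, the enteric gamma actin, read 6.71, 6.94, 7.69 and 6.68 in KO and 13.20 to 13.55 in WT (79.9-fold lower), and calponin, Cnn1, was 12.1-fold, myosin light chain kinase, Mylk, 10.3-fold and Lmod1, an actin nucleator, 5.2-fold lower. Tagln, Tpm1 and Cald1 did not pass. The list's mean was 12.01 to 12.12 on the WT arrays and 10.04 to 10.22 on the KO arrays. It moved by 0.12 over the WT arrays, over which the macrophage mean moved by 1.88. All WT arrays carried the macrophage signal, and its part in these falls was not tested. Of 10 adipocyte genes 5 were lower (50%, against 15.2% of all genes) and 5 did not pass, with a median of -0.19. Fabp4, a fatty acid carrier of fat cells and macrophages, was at least 72.8-fold and Cebpa, a factor of fat cell and myeloid differentiation, 6.84-fold lower. Of 13 cartilage and bone genes 4 were lower and 1 higher (30.8% and 7.69%, against 15.2% and 18.6% of all genes). The remaining 8 did not pass, and the median was -0.02. Col2a1, the cartilage collagen, was at least 22.3-fold lower and Sox9, the regulator of cartilage, 2.54-fold higher. Of 10 neural and glial genes 5 were lower (50%, against 15.2% of all genes) and 5 did not pass, with a median of -0.96. Among the lower ones was Nes, the intermediate filament nestin (7.58-fold).

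**Figure D3:**
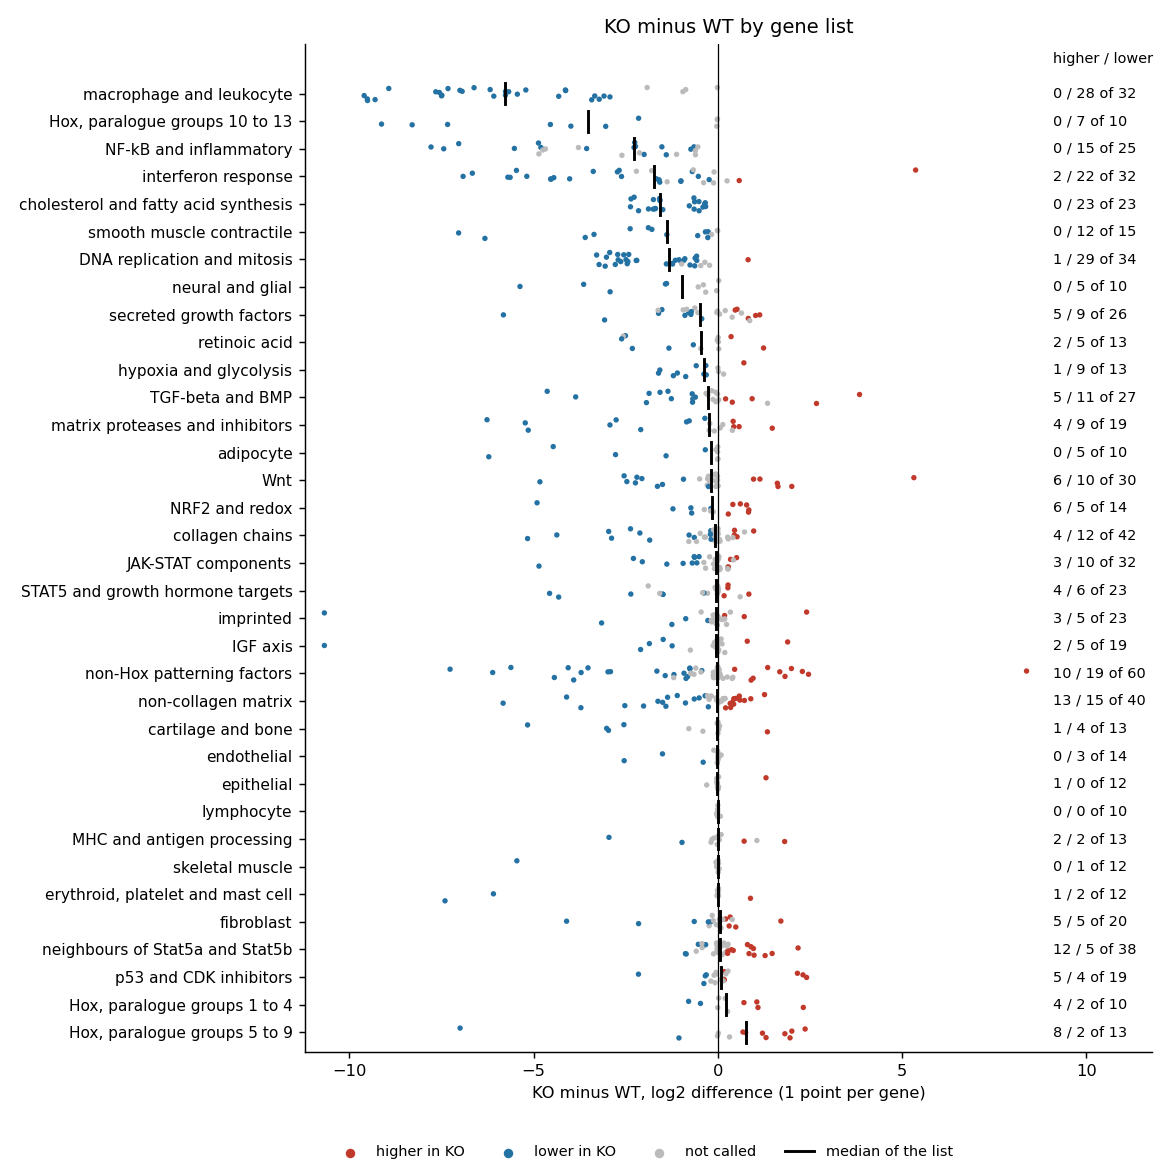
Log2 difference KO minus WT for the members of 35 gene lists, 1 point per gene (red higher in KO, blue lower, grey not called), with the median of each list as a black bar and the counts at the right. Medians lie from -5.76 for macrophage and leukocyte genes to 0.76 for Hox genes of paralogue groups 5 to 9, and most lists have medians near 0.

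Of 25 NF-kB and inflammatory genes 15 were lower in KO (60%, against 15.2% of all genes) and none higher (median -2.27). In the untreated arrays alone 14 were lower and in the treated arrays alone 23. Bcl3, a nuclear IkB protein, read 3.71, 3.10, 7.36 and 7.40 in KO and 8.48, 8.38, 12.04 and 12.13 in WT (at least 23.7-fold lower). Both genotypes were higher with the hormone, and within each state KO lay below WT. The same order held for the neutrophil chemokine Cxcl5, at 2.46, 2.56, 6.57 and 6.66 in KO and 9.55, 10.42, 13.19 and 13.21 in WT (at least 78-fold lower), for Cxcl2 (at least 27.4-fold), Cxcl1 (at least 25.1-fold) and Ccl2, the monocyte chemokine (4.7-fold). The count of this list turned on how the hormone was treated: 6 genes were lower without the hormone block and 24 in a fit of 4 group means. Cxcl1, Cxcl2 and Ccl2 were among those that did not pass without it. The chemokine Ccl3 was at least 169-fold lower, with a log2 difference of -9.30 that was -10.13 without the first untreated WT array. Ccl5, under 4 on 3 of the 4 KO arrays, was at least 126-fold lower, with a difference of the means as measured of -7.78 that was -7.19 without the first treated KO array. Ccl9, a macrophage chemokine, read 6.80 to 7.28 in KO and 11.26 to 13.51 in WT (50-fold lower).

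Of 32 interferon response genes 22 were lower (68.8%, against 15.2% of all genes) and 2 higher (median -1.73). The 2 higher were Xaf1, whose probe sets disagree, and Ifit2, at 10.59 ± 0.22 in KO and 10.01 ± 0.16 in WT (SD, n = 4; named after its values were seen). Oasl2, an OAS-like antiviral protein, was at 2.69 to 2.75 in KO and 7.94 to 9.06 in WT, at least 21.3-fold lower, Usp18, the protease that removes ISG15, at least 20.5-fold, Gbp2, an interferon-inducible GTPase, 16.2-fold, and Bst2, tetherin, 6.39-fold. Of 13 genes of MHC and antigen processing 2 were lower and 2 higher (15.4% each), near the 15.2% and 18.6% of all genes. H2-K1, a class I heavy chain, was 1.96-fold lower and Nlrc5, the class I transactivator, 3.52-fold higher. Another H2-K1 probe set, at 10.91 in KO and 11.01 in WT, did not pass (adjusted p = 0.138 among all probe sets). A further one differed by -0.87 (adjusted p = 0.0304 among all probe sets). Tap1, the peptide transporter, was higher (adjusted p = 0.0436), a call lost without any of 6 arrays (both untreated WT, the first treated WT, both untreated KO or the second treated KO, adjusted p = 0.0753 to 0.113). The WT arrays on which the inflammatory and interferon lists stood highest were those with growth hormone, and all WT arrays carried the macrophage signal described above. The part of that signal in these falls was not tested. Between the 2 untreated WT arrays the macrophage mean differed by 1.80, the interferon mean by 0.31 and the NF-kB mean by 0.14.

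**Figure D4:**
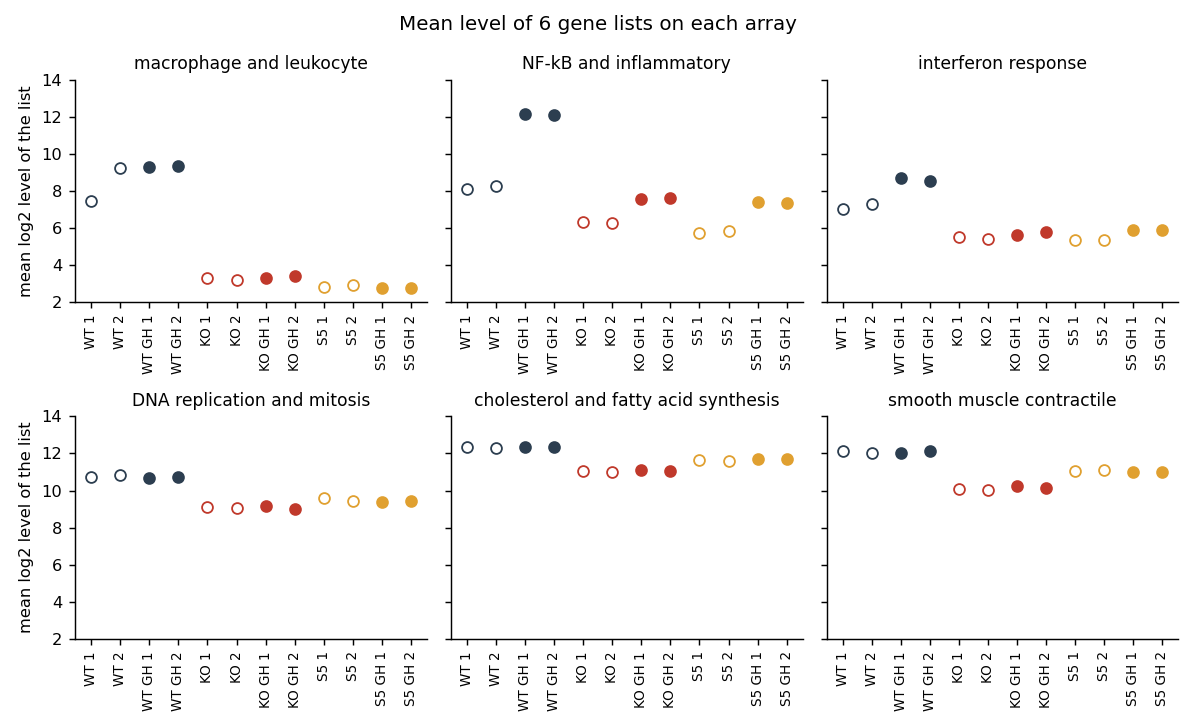
Mean log2 level of 6 gene lists on each of the 12 arrays (open untreated, filled growth hormone; WT dark, KO red, S5 yellow). WT arrays lie above KO arrays in all 6 panels, and the first untreated WT array, at 7.46 in the macrophage panel, lies 1.80 below the other untreated WT array there.

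Genes of position along the body differed by group. Hox factors are numbered along 4 clusters, low numbers being used towards the head and high numbers towards the tail, the limb ends and the genital region. Of 10 genes of paralogue groups 10 to 13, 7 were lower in KO (70%, against 15.2% of all genes) and none higher (median -3.51). Hoxd13, the most distal gene of the limb and genital programme, read 2.36, 2.45, 2.41 and 2.32 in KO and 11.55, 11.72, 11.40 and 11.38 in WT, at least 182-fold lower (SE 0.06, adjusted p = 2.18e-08). Hoxa10 was at least 122-fold and Hoxd10 at least 75.7-fold lower, Hoxa11 at least 7.84-fold and Hoxc10 4.43-fold. Of 13 genes of groups 5 to 9, 8 were higher (61.5%, against 18.6% of all genes), Hoxb5 4.03-fold, Hoxb6 3.9-fold, Hoxc9 3.54-fold, Hoxc8 2.48-fold and Hoxd9 2.32-fold among them, and 2 were lower, Hoxa9 by at least 102-fold and Hoxa5, which was named after its values were seen. By cluster, 6 of 9 Hoxb genes were higher and none lower, and 6 of 9 Hoxa genes were lower and none higher. The other clusters were mixed: of 7 Hoxc genes 3 were higher and 2 lower, and of 8 Hoxd genes 3 were higher and 3 lower.

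The S5 cells, made from KO cells according to their label, had other Hox levels than KO cells. Hoxc8 measured 13.87 ± 0.07 in KO, 12.56 ± 0.11 in WT and 2.60 ± 0.22 in S5, and Hoxb6 at 12.12 ± 0.04, 10.16 ± 0.15 and 2.12 ± 0.02 (SD, n = 4 each). Hoxd13, under 4 in KO, stood at 13.40 to 13.45 in S5. These levels were not tested against each other, and they are a description of 3 cell preparations.

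**Figure D5:**
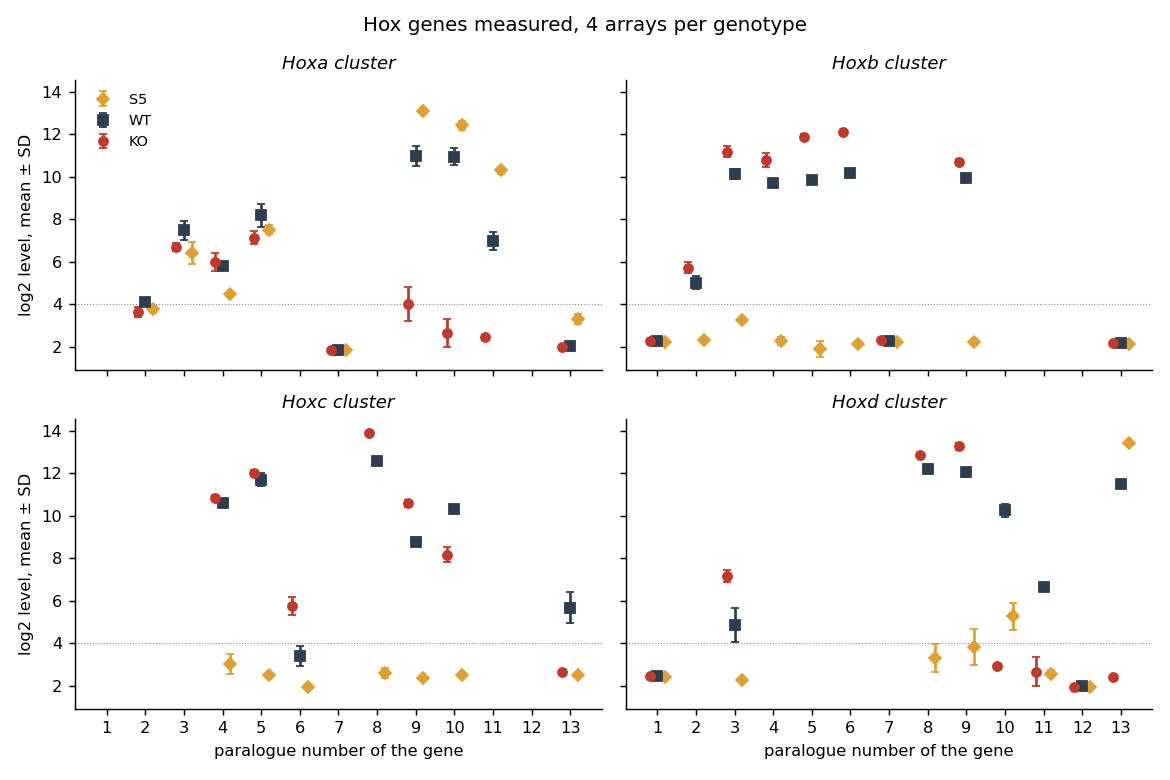
Log2 levels of the Hox genes measured in each cluster, as mean ± SD over the 4 arrays of KO (red circles), WT (dark squares) and S5 (yellow diamonds), by paralogue number, with a dotted line at 4. In the Hoxa and Hoxd clusters KO drops below 4 for genes such as Hoxa10 and Hoxd13 that WT holds above 10, while Hoxb3 to Hoxb6 are highest in KO and under 4 in S5.

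Of 60 other patterning factors 10 were higher (16.7%, against 18.6% of all genes) and 19 lower (31.7%, against 15.2%). The zinc finger factor Zic1, of neural and somite patterning, read 2.61 to 2.70 in KO and 9.75 to 10.14 in WT, at least 60.8-fold lower. Tfap2a, a neural crest and skin factor, was at least 32.1-fold lower, Tbx4, the T-box gene of the hindlimb, at least 22.8-fold, Msx1, a limb and craniofacial homeobox gene, at least 8.96-fold, and Wt1, of the urogenital ridge, at least 5.02-fold. Besides Pax3, the forelimb gene Tbx5 and the somite gene Pax1, named after their values were seen, were higher. Tbx5 had levels of 5.95 ± 0.68 in KO and 4.12 ± 0.04 in WT, Pax1 of 12.53 ± 0.22 and 10.23 ± 0.17 (SD, n = 4).

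Genes of DNA replication and mitosis were lower in KO, 29 of 34 (85.3%, against 15.2% of all genes), with a median of -1.31 and 1 higher. Mki67, the marker of cycling cells, read 9.44, 9.04, 9.47 and 9.52 in KO and 12.56, 12.53, 12.60 and 12.68 in WT, 9.33-fold lower (SE 0.09, adjusted p = 4.94e-06). No KO array came near a WT array. The checkpoint kinase Bub1 was 8.12-fold, the mitotic cyclins Ccnb2 and Ccna2 7.63-fold and 6.2-fold, and Foxm1, the factor that drives mitotic genes, 4.59-fold lower. The higher one was E2f1, a factor of S-phase entry, at 9.57 ± 0.08 in KO and 8.75 ± 0.22 in WT (SD, n = 4; named after its values were seen). The list's mean was 10.68 to 10.84 on the WT arrays and 8.99 to 9.18 on the KO arrays. It was 9.39 to 9.60 on the S5 arrays, and it moved by 0.15 over the WT arrays. The part of macrophage content in these falls was not tested. Inhibitors of the cycle went both ways. Cdkn2a, which encodes p16 and ARF and accumulates in cultured MEFs, was 4.48-fold and Cdkn1c, an imprinted inhibitor, 5.32-fold higher, while Cdkn2c was 4.44-fold lower. Perp, a p53 target of cell adhesion, was 4.97-fold higher, and of the 19 genes of this group 5 were higher and 4 lower (26.3% and 21.1%, against 18.6% and 15.2% of all genes).

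Promoters of mitotic genes often hold a cell cycle homology region (TTTGAA), bound by the complexes that repress them in resting cells, near CCAAT boxes (CCAAT). RefSeq promoters of assembly GRCm38.p6, 250 bases before to 50 after a start site, were searched on both strands for these letters, a search chosen after the values were seen. TTTGAA stood in 13 of 30 windows of the list (43.3%; 28 of 34 genes matched) and in 13.4% of all 18006 windows of the genes tested. CCAAT stood in 76.7% and 37.4%, and both together in 43.3% and 5.23%. The windows of Ccnb2 (chr9:70421505-70421804, minus strand) and Cdc20 (chr4:118437294-118437593, minus strand), Cdc20 being named after its values were seen, show the arrangement, with both motifs on the strand shown or its complement in capitals.
Ccnb2: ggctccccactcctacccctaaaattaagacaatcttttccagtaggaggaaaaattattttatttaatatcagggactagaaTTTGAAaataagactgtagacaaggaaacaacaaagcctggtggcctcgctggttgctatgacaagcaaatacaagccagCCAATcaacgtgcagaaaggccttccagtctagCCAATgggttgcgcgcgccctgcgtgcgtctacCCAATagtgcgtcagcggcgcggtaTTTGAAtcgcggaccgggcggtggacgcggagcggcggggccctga
Cdc20: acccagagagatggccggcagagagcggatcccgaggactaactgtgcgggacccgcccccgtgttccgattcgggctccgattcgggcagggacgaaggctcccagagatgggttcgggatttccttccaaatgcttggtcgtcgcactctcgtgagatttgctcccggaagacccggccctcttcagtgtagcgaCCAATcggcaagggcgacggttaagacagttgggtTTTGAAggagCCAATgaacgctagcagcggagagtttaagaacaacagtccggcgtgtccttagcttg
Cdc20, the activator of the anaphase-promoting complex, stood at 10.08 ± 0.33 in KO and 12.79 ± 0.07 in WT (SD, n = 4). The letters are a description of the windows and not of bound sites.

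All 23 genes of cholesterol and fatty acid synthesis measured were lower in KO, against 15.2% of all genes, with a median of -1.57. Lss, lanosterol synthase, read 10.25, 10.38, 10.42 and 10.46 in KO and 12.84, 12.70, 12.68 and 12.73 in WT, 5.12-fold lower (SE 0.06, adjusted p = 3.24e-06). The highest KO array lay below the lowest WT array. Stard4, a sterol carrier, was 4.82-fold, Dhcr7, which makes cholesterol in the last step, 4.44-fold, Cyp51, lanosterol demethylase, 3.37-fold, Msmo1, a sterol oxidase, 3.35-fold, and Sqle, squalene epoxidase, 3.25-fold lower. The mean of the list was 12.30 to 12.36 on the WT arrays and 11.02 to 11.12 on the KO arrays. It moved by 0.06 over the WT arrays, and the part of macrophage content in these falls was not tested. The letters TCACNCCAC of a sterol element, searched in the same way, stood in 1 of 21 promoter windows of the list (4.76%, against 1.21% of all windows), and CCAAT in 76.2%. Genes of hypoxia and glucose use were lower in 9 of 13 (69.2%, against 15.2% of all genes) and higher in 1. Hexokinase Hk2 was 2.97-fold, Vegfa, the endothelial growth factor, 3.05-fold and the glucose transporter Slc2a1 1.25-fold lower, and Ndrg1 1.63-fold higher.

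Of 23 known STAT5 and growth hormone targets 6 were lower (26.1%, against 15.2% of all genes) and 4 higher (17.4%, against 18.6%), with a median of -0.05. Socs2, a feedback inhibitor of cytokine receptors, read 4.69, 4.64, 5.28 and 5.40 in KO and 7.14, 7.28, 11.44 and 11.42 in WT, 19.9-fold lower (SE 0.72, adjusted p = 0.00465). The untreated WT arrays already stood above every KO array. Cish, the related inhibitor, read 4.99, 4.76, 4.32 and 4.69 in KO and 4.84, 5.17, 8.22 and 8.07 in WT, a pooled difference of -1.89 that did not pass (SE 0.72, adjusted p = 0.0965). Untreated KO and WT arrays overlapped and the treated ones did not. In a fit of 4 group means both this difference and the one for Bcl6, given next, passed (adjusted p = 0.000313 and 0.000901). Bcl6, a repressor that STAT5 represses, read 12.16 to 12.37 in KO, 12.56 and 12.64 in untreated WT and 10.74 and 10.71 in treated WT, and its pooled difference of 0.61 did not pass (adjusted p = 0.319). Igf1, the growth factor that mediates much of the hormone's action, was 2.79-fold lower in KO (10.73, 10.19, 9.81 and 10.52 against 11.46, 11.87, 11.83 and 12.01, adjusted p = 0.00361), with all 4 of its probe sets lower. Socs3 was 5.13-fold lower, Tnfsf11, the osteoclast factor RANKL, at least 20.6-fold lower, and Nox4, an NADPH oxidase, 1.8-fold higher.

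The core sequence that STAT5 dimers bind, TTCNNNGAA, is its own reverse complement. It stood in 6.34% of the promoter windows of genes lower in KO, 5.93% of those higher and 7.2% of all windows, and in 7 of 25 windows of the STAT5 target list (18 of 23 genes matched). The tighter TTCCNGGAA stood in 1.08%, 1.01% and 1.18%. Of the genes of the 7 target windows with the core, only Socs3 was lower in KO and Nox4 was higher. The others, Cish and Bcl6 among them, did not pass, and Socs2 had no window. The window of Cish (chr9:107296409-107296708, plus strand) holds 2 matches, in capitals, and is shown because its treated arrays separate the genotypes.
Cish: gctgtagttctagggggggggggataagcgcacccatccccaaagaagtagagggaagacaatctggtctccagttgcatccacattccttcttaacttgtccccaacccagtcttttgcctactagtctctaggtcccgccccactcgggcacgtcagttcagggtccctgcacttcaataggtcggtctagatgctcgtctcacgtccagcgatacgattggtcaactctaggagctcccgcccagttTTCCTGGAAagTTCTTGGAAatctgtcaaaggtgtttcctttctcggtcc

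Among JAK-STAT components 10 of 32 were lower (31.2%, against 15.2% of all genes) and 3 higher (9.38%, against 18.6%). Receptor chains of the interleukin 6 family were lower, Lifr 2.61-fold, Osmr 1.92-fold and Il6st, the shared signalling chain, 1.56-fold. The receptor chain Il4ra was 4.13-fold, the kinase Jak1 1.42-fold and the phosphatase Ptpn2 1.48-fold lower. The other Ptpn2 probe sets differed by -0.03, -0.025 and -0.499 and did not pass (adjusted p = 0.974, 0.95 and 0.276 among all probe sets). In the IGF axis 5 of 19 were lower (26.3%) and 2 higher (10.5%). Besides both ligands, the binding protein Igfbp4 was 3.62-fold, Igfbp3 2.36-fold and Pappa, the protease that cleaves Igfbp4, 4.27-fold lower, while Igfbp5 was 3.72-fold and the insulin receptor Insr 1.74-fold higher. Of 23 imprinted genes 5 were lower (21.7%) and 3 higher (13%), shares near those of all genes, with a median of -0.04. Asb4 was at least 5.72-fold, Nnat 2.37-fold and Plagl1 1.83-fold lower, and Impact 1.65-fold higher.

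Matrix genes and their proteases differed in both directions. Among all genes 18.6% were higher and 15.2% lower. Of 40 matrix genes other than collagens 13 were higher and 15 lower (32.5% and 37.5%). Elastin, Eln, read 2.38 to 2.76 in KO and 8.21 to 8.80 in WT, at least 21.7-fold lower, Mfap5, a microfibril protein, was 13.1-fold and the basement membrane protein Nid2 5.74-fold lower, and Emilin1, an elastic fibre protein, 2.41-fold higher. Of 42 collagen chains 12 were lower and 4 higher (28.6% and 9.52%), with Col15a1 at least 17.2-fold and Col5a3 3.6-fold lower and Col7a1 1.97-fold higher. The gelatinase Mmp9 read 6.57 to 7.12 in KO and 11.87 to 12.04 in WT (35.3-fold lower), and stromelysin, Mmp3, was 37.4-fold lower. Of 19 proteases and inhibitors 9 were lower and 4 higher (47.4% and 21.1%), Mmp11 by 2.79-fold. Of 27 TGF-beta and BMP genes 11 were lower and 5 higher (40.7% and 18.5%). Bmp4 was 3.64-fold lower and Grem1, a secreted BMP antagonist, 6.41-fold higher. Of 30 Wnt genes 10 were lower and 6 higher (33.3% and 20%), with the antagonist Sfrp2 28.4-fold lower and Rspo2, an R-spondin that strengthens Wnt signals, 3.11-fold higher. Of 13 retinoic acid genes 5 were lower and 2 higher (38.5% and 15.4%), with the carrier Crabp2 6.1-fold lower. Of 14 redox genes 5 were lower and 6 higher (35.7% and 42.9%), with the cystine transporter Slc7a11 at least 13.7-fold lower.

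Genes next to the deleted locus were examined because the DNA beside a targeted gene can differ from that of a control line. Stat5a and Stat5b lie side by side on chromosome 11, and of the 20 genes on each side 38 were measured. Of these 12 were higher and 5 lower, 31.6% and 13.2% against 18.6% and 15.2% of all genes, with a median of 0.07. Coasy, an enzyme of coenzyme A synthesis, was 2.78-fold, Ezh1, a histone methyltransferase, 2.44-fold and Naglu, a lysosomal enzyme, 1.96-fold higher.

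Few genes passed the test of whether the difference between the genotypes depended on the hormone. The interaction of genotype and hormone passed in 116 genes (0.638%). With 2 arrays a group, a gene that did not pass can still depend on the hormone. The interaction was -4.46 for Ccl3 (adjusted p = 0.155) and 2.87 for Ppp1r3c (adjusted p = 0.118), and neither passed. For Socs2 the KO minus WT difference was -2.54 without and -6.09 with growth hormone, an interaction of -3.55 (SE 0.10, adjusted p = 0.000229). For Cish it was -0.14 and -3.64 (adjusted p = 0.0101), and for Bcl6 -0.33 and 1.55 (adjusted p = 0.00516). This count was 210 without the second untreated WT array, 57 and 49 without the first and second untreated KO array, and 56 without the second treated KO array, each of which leaves 1 array in a group that is then assumed to vary like the others.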

How the data were processed

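Transcript levels were measured on 12 arrays, in 6 groups of 2, and 8 of them entered the comparison. The authors deposited 1 value per probe set and array. GCOS and RMA are named in the submitters' processing notes, with versions and settings not given in the sources used here. The deposited values, from 0.99 to 15.95, were taken as log2 because of their range, since the scale is not stated in the labels. Of 45101 probe sets, 64 were controls, 932 had several genes, 9160 had none in the annotation used and 34945 had 1. Each of 18193 genes was represented by its brightest probe set (mean of all 12 arrays), and 9010 genes had several.

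limma 3.58.1 in R 4.3.3 fitted genotype and hormone to the 8 arrays (5 residual degrees of freedom), with Benjamini-Hochberg adjustment over all genes at 0.05. The interaction was tested in a fit of 4 group means. Tested on simulated data for the KO minus WT comparison over 18193 genes, the fit called 84% of genes raised by 1 and 96% raised by 2 on the log2 scale, and 80% and 94% of those lowered as much. Of all calls 5.85% were false (11 calls). Each change was given to 50 genes with a mean over 6, so these shares do not cover genes of low level. The changed genes were far fewer than those called in the data. Values under 4 were set to 4 for fold changes only, which are then lower bounds. Differences, their SEs and all tests use the values as deposited. Genes were described in 35 lists, 57 of whose members were not matched, by counts and medians. The genes named were 8 fixed ones, the 20 largest rises and 20 largest falls among called genes without overlap, the 15 largest falls with every KO array at 6 or above, and in each list the 6 members with the smallest adjusted p and those that define a cell type. The members and lists were chosen with earlier results of these data known. Genes of X inactivation and the Y chromosome were left aside. Alternatives were other fits, scalings, probe set choices, floors, thresholds and each array left out.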

Additional observations from a re-analysis of the deposited data

Results flagged for a closer look

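A change of the KO minus WT difference with growth hormone passed in 6 of 166 genes followed by name, and in 116 of all 18193 (0.638%). The test was limma's interaction test in the fit of 4 group means. Genes named after their values were seen are among the 166. The interaction was -3.55 for Socs2, -3.51 for Cish and 1.88 for Bcl6 on the log2 scale, with adjusted p of 0.000229, 0.0101 and 0.00516. It was -1.37 for Gjb2, a gap junction protein (adjusted p = 0.0178), 0.93 for the neural factor Sox2 (0.0224) and -3.94 for Cd74, the invariant chain of class II antigen presentation (0.0132), all 3 of which were under 4 on every KO array. Sox2 and Cd74 were also under 4 on 2 of the 4 WT arrays. With values under 4 set to 4, their pooled differences were -0.099 and -1.411. The pooled call of Cd74 (adjusted p = 0.0329) was lost without any 1 of the 4 treated arrays (adjusted p = 0.0763 to 0.0924). In WT the 2 treated arrays of each of the 6 genes lay apart from the 2 untreated ones. Pair means of Socs2 were 7.21 untreated and 11.43 treated in WT, and 4.67 and 5.34 in KO.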

How the results depend on the processing

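Of 148 called genes followed by name through 23 alternatives, 134 kept their call and direction in every alternative that held them. The 14 that lost it under at least 1 were Ccl2, Cd74, Cxcl1, Cxcl2, Erg, Ifit2, Itga2b, Krt18, Ptpn2, Slc2a1, Sox2, Tap1, Tbx5 and Xaf1. The setting of genes with a mean of at least 4 held 152 of the 166 genes followed by name. In the setting of every probe set only the chosen probe set of a gene was followed, so disagreement between probe sets is not covered. With every probe set, 9544 of 34945 were called, 5441 of them higher and 1641 higher at least 2-fold. Untreated arrays alone gave 2042 higher genes. Rises numbered 1889 at 1.5-fold and 218 at 4-fold, and falls 718 at 4-fold. The interaction passed in 231 genes with 6 group means over 12 arrays, in 72 of the genes with a mean of at least 4 and in 76 with values under 4 set to 4. NF-kB genes lower in KO numbered 25 with 6 group means, 24 with 4, 6 without the hormone block and 23 in treated arrays. The tighter motif stood in 1.08% of windows of lower and 1.01% of higher genes. Leaving out 1 array gave 5213 to 5825 calls (2813 to 3254 higher, 2400 to 2571 lower), 791 to 962 rises and 1249 to 1326 falls of at least 2-fold, 49 to 210 interactions, 17 to 22 interferon and 12 to 16 NF-kB genes lower, and 10 to 13 neighbours higher. Same-numbered arrays shared only a number: with it as a replicate block the interaction passed in 65 genes and Tap1 and Cd74 did not pass (adjusted p = 0.0696 and 0.0574). Bcl6 was -0.33 in untreated arrays alone. Itga2b and Erg, under 4 in both genotypes, have no difference once values under 4 are set to 4. Uncalled genes near 0 changed sign, and the cause was not tested. Under median centring Cald1 was 0.040, Cd79a 0.036, Itgam 0.034, Ms4a1 0.014 and Tpm1 0.034. With the mean of probe sets Cald1 was 0.188 and Jak2 0.034, with array weights Cald1 was 0.019, and in treated arrays Itgam was 0.006 and Tpm1 0.024. Leaving out 1 array, Cald1 ranged from -0.046 to 0.038, Cd3e from -0.005 to 0.020 (-0.000 in untreated arrays), Cd79a from -0.020 to 0.007, Itgam from -0.029 to 0.008 and Tpm1 from -0.035 to 0.007. The 2 arrays a group limit what can be seen, and genes under 4 give bounds only.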

Other observations

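Of 26 secreted growth factors 9 were lower in KO (34.6%, against 15.2% of all genes) and 5 higher (19.2%, against 18.6%). Mdk, the heparin-binding factor midkine, was at least 10.5-fold lower and Vegfd, a lymphatic growth factor, 2.04-fold higher. Of 10 Hox genes of paralogue groups 1 to 4, 4 were higher (40%) and 2 lower (20%), with a median of 0.24. Of 14 endothelial genes 3 were lower (21.4%) and none higher, and 1 of the 3, Erg, was under 4 on all 8 arrays (named after its values were seen).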
